A study of Mus musculus with 24 samples.

Results

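The oxygen-sensing machinery that enarodustat acts on was described in mouse kidney RNA through 9 genes: the prolyl hydroxylases Egln1, Egln2 and Egln3, the asparaginyl hydroxylase Hif1an, the ubiquitin ligase subunit Vhl, the alpha subunits Hif1a, Epas1 and Hif3a, and their partner Arnt. The genes were chosen by name for their place in the pathway, and every array probe whose accession maps to one of them was taken. This gave 13 probes of 56605 on the array and 9 of 22911 named genes. The study asked how enarodustat alters the kidney in early diabetic kidney disease. It measured renal RNA of 24 male Crl:CD1(ICR) mice, 1 mouse per single-colour array.

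The sham group (n = 6) received intravenous vehicle and normal feed. The DKD group (n = 9, for diabetic kidney disease) received 90 mg/kg alloxan intravenously, 3 days before grouping, and normal feed. The enarodustat group (n = 9) received the same alloxan dose and feed containing 0.01% enarodustat by weight. Both alloxan groups were chosen to match in blood glucose and body weight, and kidneys were taken 16 days after grouping. Alloxan is a toxin of insulin-producing cells, so both groups model insulin deficiency. No group used here received enarodustat without alloxan.

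Hypoxia-inducible factor (HIF) is a transcription factor made of an oxygen-controlled alpha subunit and the stable subunit Arnt. With oxygen and 2-oxoglutarate available, the prolyl hydroxylases modify the alpha subunit, VHL binds it and the proteasome destroys it, while Hif1an hydroxylates an asparagine and hinders coactivator binding. Enarodustat inhibits the prolyl hydroxylases, and in kidney the pathway is best known for oxygen-dependent erythropoietin production. These steps act on protein, whereas the arrays measured RNA.

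HIF binds a core of the letters ACGTG or GCGTG, and Egln3 and Egln1 are known HIF targets. The 250 bases before the transcription start were therefore searched for ACGTG and GCGTG on both strands in the RefSeq promoter table (assembly GRCm38.p6), which held a window for 8 of the 9 genes. The windows of the 4 members that passed the test between DKD and sham are shown, with every match in capitals, including matches on the other strand. The Egln1 window is chr8:124949255-124949504 on the minus strand, and the upper of the Egln2 windows is chr7:27166803-27167052 on the minus strand. The Egln3 window is chr12:54203875-54204124 on the minus strand, and the Hif1a window is chr12:73907617-73907866 on the plus strand.
Egln1: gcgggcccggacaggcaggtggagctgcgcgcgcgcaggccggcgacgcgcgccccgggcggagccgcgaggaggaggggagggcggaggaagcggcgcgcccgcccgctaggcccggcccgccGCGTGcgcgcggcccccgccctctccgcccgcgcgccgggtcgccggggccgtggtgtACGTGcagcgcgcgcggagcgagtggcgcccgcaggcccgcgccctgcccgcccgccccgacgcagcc
Egln2: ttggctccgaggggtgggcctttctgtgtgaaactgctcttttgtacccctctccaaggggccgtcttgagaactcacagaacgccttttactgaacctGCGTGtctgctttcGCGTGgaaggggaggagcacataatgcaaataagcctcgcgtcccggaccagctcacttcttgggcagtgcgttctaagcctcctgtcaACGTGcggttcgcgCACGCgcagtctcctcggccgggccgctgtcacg
Egln3: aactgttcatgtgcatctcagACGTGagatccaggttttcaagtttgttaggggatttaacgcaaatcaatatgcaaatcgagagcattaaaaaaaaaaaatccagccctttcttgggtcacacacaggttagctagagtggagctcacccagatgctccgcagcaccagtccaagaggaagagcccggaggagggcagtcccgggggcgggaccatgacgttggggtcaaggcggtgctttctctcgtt
Hif1a: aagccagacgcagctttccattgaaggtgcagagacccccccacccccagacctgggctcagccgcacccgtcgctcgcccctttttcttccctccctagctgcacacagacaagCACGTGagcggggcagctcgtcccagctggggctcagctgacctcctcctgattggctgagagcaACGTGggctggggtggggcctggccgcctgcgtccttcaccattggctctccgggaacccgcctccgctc

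The Egln1 window held 2 matches, GCGTG at 126 to 122 and ACGTG at 68 to 64 bases before the start. The Egln2 window held 4, and the window of its other listed start held 1. The Egln3 window held 1, ACGTG at 229 to 225 bases before the start. The Hif1a window held 3, of which the pair in the capitals CACGTG is the same palindrome read on both strands. Hif3a had 2 matches, Arnt 1, and Vhl and Hif1an 0. Of all 32851 windows of this length, 38.6% held at least 1 match, 16.7% at least 2, 6.58% at least 3 and 2.58% at least 4. A match is a description of letters and not a binding site.

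A level is the log2 of a probe's signal after subtraction of the array's 75th percentile, and a difference is a log2 difference ± SE from a limma fit over all 24 arrays. "Rose" and "fell" mean that the Benjamini-Hochberg adjusted p over 17736 tested genes was under 0.05. Levels of different genes come from different probes and are not set against each other. The 75th percentile lay at signals of 187 to 388, 37716 to 44732 spots per array were well above background, and precision is limited by how many arrays there are. All 11 proximal tubule and 6 podocyte markers of kidney could be tested, whereas Adipoq and Plin1 of fat and Cyp11a1 and Cyp11b1 of the adrenal cortex were below the detection filter. The other 2 of 4 fat markers, Cidec and Lep, and 2 of 4 adrenal markers, Star and Hsd3b1, were detected and tested. Of these, only Star passed, between enarodustat and sham (0.75 ± 0.24, adjusted p = 0.0356, limma). The arrays filled 3 slides, each with 3 enarodustat, 3 DKD and 2 sham arrays. Row on the slide went with group: all sham arrays sat in row 1, all enarodustat arrays in row 2, and the DKD arrays in both (6 in row 1, 3 in row 2). Of the genes called between DKD and sham, 47.2% were higher in DKD, against 29.0% when arrays were scaled to their median. For enarodustat minus sham the share was 56.4% against 29.9%, and for enarodustat minus DKD 85.0%, against 74.8% after quantile normalization and 69.5% in the authors' deposited values. Scaling to the array median placed the median difference of all genes at −0.12, −0.03 and −0.16 for DKD against sham, enarodustat against DKD and enarodustat against sham, in place of −0.01, 0.0048 and −0.02.

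Members of the oxygen-sensing machinery moved in different directions. In DKD kidneys Egln3 and Hif1a rose and Egln1 and Egln2 fell, so that 4 of 9 members changed, where 11.6% of all genes did (5.47% rose and 6.13% fell). Between enarodustat and DKD, Egln3 and Egln1 rose and 0 members fell, 2 of 9, where 0.716% of all genes changed (0.609% rose and 0.107% fell). Between enarodustat and sham, Egln3 rose and Egln2 fell, 2 of 9, where 15.5% of all genes changed (8.74% rose and 6.75% fell). Vhl, Arnt, Hif1an, Epas1 and Hif3a did not pass in any comparison. Both comparisons of DKD with another group share the same 9 DKD arrays, and both comparisons with sham share the 6 sham arrays.

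**Figure D1:**
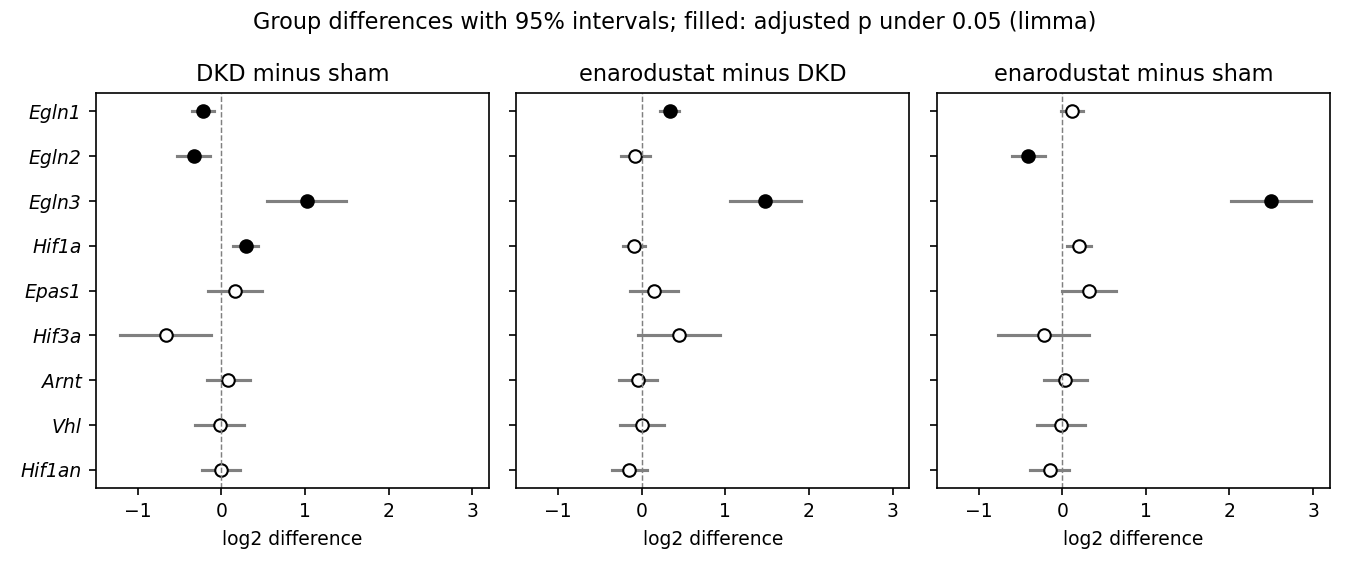
Log2 differences of the 9 genes (x axis) for DKD against sham, enarodustat against DKD and enarodustat against sham (first group minus the other), with 95% confidence intervals from limma and filled points for an adjusted p under 0.05. Egln3 lies to the right of 0 in all 3 panels, at 1.02, 1.48 and 2.50, and the other members lie between −0.67 and 0.44.

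Egln3 encodes PHD3, the prolyl hydroxylase whose RNA is best known to follow HIF activity. Its level in sham arrays ran from −2.57 through a median of −2.12 to −1.71. In DKD arrays it ran from −2.03 through −1.07 to −0.48, and in enarodustat arrays from −0.51 through 0.59 to 0.97. The groups formed steps, with DKD 8 inside the sham range, DKD 7 just above it, and DKD 2 alone reaching the lowest enarodustat array, enarodustat 7. Egln3 rose by 1.02 ± 0.23 in DKD over sham (2.03-fold, adjusted p = 0.00489), with 9 of 9 DKD arrays above the sham mean. It rose by a further 1.48 ± 0.21 in enarodustat over DKD (2.78-fold, adjusted p = 0.000244), with 9 of 9 enarodustat arrays above the DKD mean. From sham to enarodustat the difference was 2.50 ± 0.23 (5.64-fold, adjusted p = 1.6e-07) and the groups did not overlap, as for 4.94% of all genes. These sizes were smaller under other processing: in the authors' deposited values the differences were 0.55, 1.13 and 1.68 (adjusted p = 0.0365, 0.000166 and 1.08e-06), and with normexp on median signals 0.57, 1.12 and 1.70 (adjusted p = 0.0326, 0.00015 and 7.36e-07, limma). In whole-tissue RNA, a change in the share of a cell type and a change in RNA per cell cannot be told apart.

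The Egln3 difference between DKD and sham was 1.57, 0.91 and 0.58 within slides 1, 2 and 3, and that between enarodustat and DKD was 0.96, 1.61 and 1.86. From sham to enarodustat it was 2.53, 2.53 and 2.44. The total step was thus alike on the 3 slides while the point at which DKD lay within it differed. With the row of the array on the slide as a term, the enarodustat difference from DKD was 1.25 with an adjusted p of 0.0869 in limma. The 3 DKD arrays in row 2, the row of the enarodustat arrays, had Egln3 levels of −0.67, −1.12 and −0.80, below every enarodustat array.

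Egln1 encodes PHD2, the main oxygen sensor among the prolyl hydroxylases. Its level in sham ran from 3.52 through a median of 3.64 to 3.72. In DKD it ran from 3.24 through 3.39 to 3.64, and in enarodustat from 3.66 through 3.75 to 3.82. DKD arrays lay lowest and most spread, with an SD of 0.13 against 0.07 in sham and 0.05 in enarodustat, and every enarodustat array lay above every DKD array, as for 0.147% of all genes. Egln1 fell in DKD (−0.22 ± 0.06, adjusted p = 0.0276), with 1 of 9 DKD arrays above the sham mean. It rose by 0.33 ± 0.06 with enarodustat over DKD (1.26-fold, adjusted p = 0.00358). Enarodustat and sham differed by 0.12 ± 0.06 (95% interval −0.02 to 0.25, adjusted p = 0.234). Both calls were small and ended under other normalizations: the DKD difference was −0.11 (adjusted p = 0.468) after quantile normalization and −0.13 (adjusted p = 0.322) in the authors' deposited values, and the enarodustat difference was 0.31 (adjusted p = 0.0768) and 0.28 (adjusted p = 0.0711). With median scaling the differences were −0.32 (adjusted p = 0.0854) and 0.29 (adjusted p = 0.412), and with slide row as a term the enarodustat difference was 0.32 (adjusted p = 0.127). The DKD call was also lost without sham 3, sham 4 or sham 5 (adjusted p = 0.0605, 0.0633 and 0.0702, limma).

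Egln2 encodes PHD1, a largely nuclear prolyl hydroxylase. At its brighter probe, sham arrays ran from 4.38 through a median of 4.56 to 4.78. DKD arrays ran from 3.98 through 4.24 to 4.51, and enarodustat arrays from 3.88 through 4.25 to 4.43. Sham arrays were highest, and both alloxan groups covered nearly the same lower range, overlapping sham in their upper part. Egln2 fell in DKD relative to sham (−0.33 ± 0.10, adjusted p = 0.0246) and was also below sham with enarodustat (−0.41 ± 0.10, adjusted p = 0.00546), and in each of these groups 0 of 9 arrays lay above the sham mean. Between enarodustat and DKD the difference was −0.08 ± 0.09 (95% interval −0.25 to 0.10, adjusted p = 0.861). A dimmer Egln2 probe gave −0.48 ± 0.13 in DKD (adjusted p = 0.0189 over 40774 probes), −0.07 ± 0.11 between enarodustat and DKD and −0.55 ± 0.13 between enarodustat and sham (adjusted p = 0.00603). The DKD fall was −0.33, −0.33 and −0.33 within slides 1, 2 and 3, and its call was lost without sham 2, sham 3 or sham 4 (adjusted p = 0.0527, 0.077 and 0.0647) and with quantile normalization (−0.25, adjusted p = 0.0584) or median scaling (−0.44, adjusted p = 0.0724). With slide row as a term, the enarodustat difference from sham was −0.46 and did not pass (adjusted p = 0.09).

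**Figure D2:**
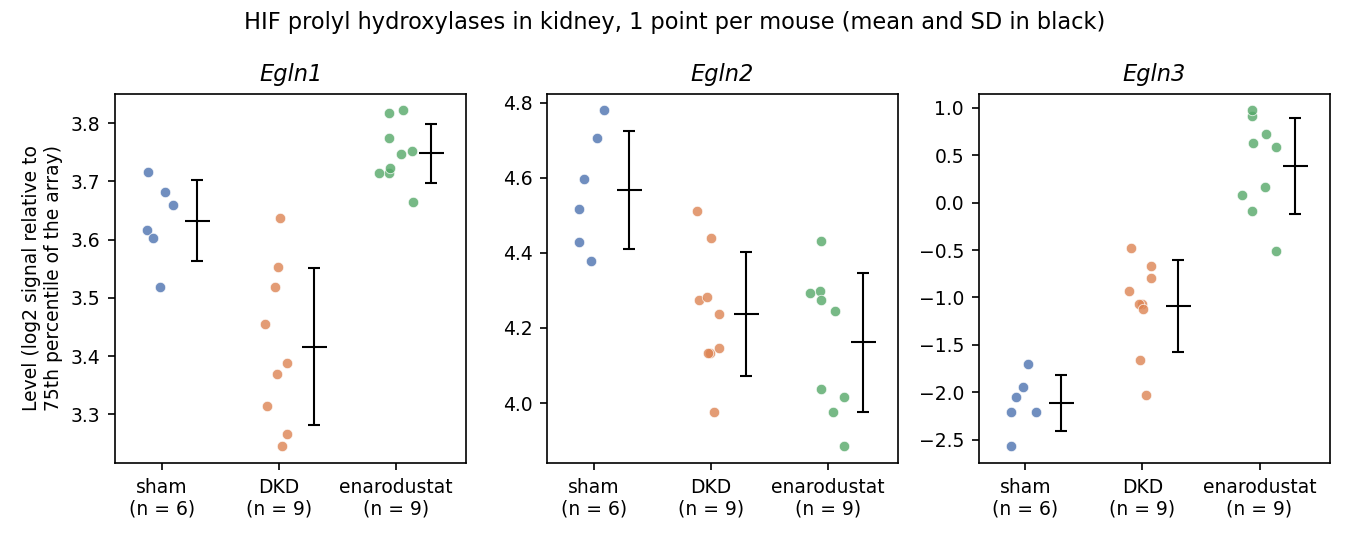
Level of Egln1, Egln2 and Egln3 in each mouse (y axis, log2 signal minus the array's 75th percentile, with a separate scale per gene), with the mean and SD of each group in black. Egln3 steps up from sham to DKD to enarodustat, Egln1 is lowest in DKD, and Egln2 is highest in sham.

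Whether the 3 prolyl hydroxylases changed unequally was tested on the difference between their log2 levels in each array, by exact two-sided permutation of the arrays, with adjustment over 15 such tests, of which 9 passed. Egln3 moved up relative to Egln1 by 1.24 in DKD (exact permutation p = 0.0004, adjusted 0.000749) and by 1.15 with enarodustat over DKD (exact permutation p = 0.000288, adjusted 0.000617). Relative to Egln2, it moved up by 1.35 in DKD and by 1.55 with enarodustat over DKD (exact permutation p = 0.0002 and 4.1e-05, the smallest these permutations can give, both adjusted 0.0005). Egln1 and Egln2 differed in their change with enarodustat over DKD, by 0.41 (exact permutation p = 8.2e-05, adjusted 0.0005), whereas between DKD and sham their gap changed by 0.11 (exact permutation p = 0.15, adjusted 0.188). In the deposited values Egln3 moved up relative to Egln1 and Egln2 by 0.68 and 0.81 in DKD (exact permutation, adjusted 0.013 and 0.0034). In this test, which took no account of slide row, all 3 genes parted between enarodustat and DKD, in the order Egln3, Egln1, Egln2. With slide row as a term, neither Egln3 nor Egln1 passed between these groups (adjusted p = 0.0869 and 0.127, limma). The part of slide row in these unequal changes was not tested.

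Hif1an encodes factor inhibiting HIF, the asparaginyl hydroxylase. Its level ran from −2.01 through a median of −1.75 to −1.35 in sham, from −2.01 through −1.77 to −1.29 in DKD, and from −2.04 through −1.91 to −1.57 in enarodustat. The ranges lay almost on top of each other. The DKD difference was −0.0042 ± 0.11 (95% interval −0.24 to 0.23, adjusted p = 0.989), and the enarodustat difference from DKD −0.15 ± 0.10 (95% interval −0.36 to 0.06, adjusted p = 0.673). At the other Hif1an probe these were 0.13 ± 0.15 and −0.16 ± 0.13.

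Vhl encodes the subunit of the ubiquitin ligase that recognises hydroxylated HIF. Sham arrays ran from 0.90 through a median of 1.11 to 1.19. DKD arrays ran from 0.54 through 1.00 to 1.61, and enarodustat arrays from 0.80 through 0.94 to 1.55. The alloxan groups reached both above and below sham, with SDs of 0.35 in DKD and 0.25 in enarodustat against 0.12 in sham, while the 3 means were 1.07, 1.05 and 1.05. The difference was −0.02 ± 0.14 for DKD minus sham (95% interval −0.31 to 0.27, adjusted p = 0.956) and 0.0055 ± 0.13 for enarodustat minus DKD (95% interval −0.26 to 0.27, adjusted p = 0.994).

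Hif1a encodes HIF-1 alpha, the broadly expressed alpha subunit. In sham its level ran from 1.66 through a median of 1.68 to 1.81. In DKD it ran from 1.84 through 2.00 to 2.23, and in enarodustat from 1.70 through 1.91 to 2.07. The SD was 0.13 in DKD and 0.13 in enarodustat against 0.06 in sham. Every DKD array lay above every sham array, as for 3.4% of all genes, while enarodustat arrays overlapped both groups. Hif1a rose by 0.29 ± 0.07 in DKD (1.22-fold, adjusted p = 0.00942). Enarodustat differed from DKD by −0.09 ± 0.06 (95% interval −0.22 to 0.04, adjusted p = 0.693) and from sham by 0.20 ± 0.07 (adjusted p = 0.0608), a difference that passed after quantile normalization (0.24, adjusted p = 0.00926), in the deposited values (0.22, adjusted p = 0.00548) and with normexp on median signals (0.19, adjusted p = 0.0412). It was 0.058 (adjusted p = 0.747) with median scaling and 0.053 (adjusted p = 0.803) with slide row as a term. With arrays scaled to their median the DKD difference was 0.19 (adjusted p = 0.341).

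Epas1 encodes HIF-2 alpha, which in kidney is known from endothelial and erythropoietin-producing interstitial cells. Sham arrays ran from 4.01 through a median of 4.18 to 4.31. DKD arrays ran from 3.54 through 4.35 to 4.78, and enarodustat arrays from 3.95 through 4.56 to 4.82. As with Vhl and Hif1a, both alloxan groups were wider than sham, with SDs of 0.37 and 0.31 against 0.11, and DKD 9 lay well below all other arrays. Epas1 differed by 0.17 ± 0.16 in DKD minus sham (adjusted p = 0.564), 0.15 ± 0.14 in enarodustat minus DKD (adjusted p = 0.817) and 0.32 ± 0.16 in enarodustat minus sham (95% interval −0.01 to 0.64, adjusted p = 0.18). Without DKD 9 the difference between DKD and sham was 0.27. With slide row as a term the 3 differences were 0.31, 0.43 and 0.74 (adjusted p = 0.216, 0.4 and 0.0734, limma). The mean Epas1 level was 4.47 in the DKD arrays of row 1 and 4.04 in those of row 2.

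Hif3a encodes HIF-3 alpha, whose short forms can restrain HIF. Its brighter probe ran from −3.24 through a median of −2.52 to −2.31 in sham, from −3.98 through −3.25 to −2.30 in DKD, and from −3.42 through −3.06 to −1.80 in enarodustat. The ranges overlapped, with 2 of 9 DKD arrays above the sham mean and 7 of 9 enarodustat arrays above the DKD mean. The difference was −0.67 ± 0.26 for DKD minus sham (95% interval −1.21 to −0.12, adjusted p = 0.107) and 0.44 ± 0.24 for enarodustat minus DKD (adjusted p = 0.526). It was −1.24, −0.15 and −0.61 within slides 1, 2 and 3 for DKD minus sham, and passed the test without DKD 4 (−0.80, adjusted p = 0.035). The enarodustat difference from DKD was 1.28, 0.0031 and 0.051 within these slides. In the deposited values the differences were −0.27 and 0.13 (adjusted p = 0.0853 and 0.616), and with normexp on median signals −0.23 and 0.12 (adjusted p = 0.201 and 0.906). Relative to Hif1a in the same arrays, the Hif3a level changed by −0.96 in DKD (exact permutation p = 0.014, adjusted 0.0233 over the 15 tests), so these alpha subunits changed unequally in this test. That change was −0.58 in the deposited values and −0.50 with normexp (exact permutation, both adjusted 0.003), and it did not pass without sham 1 or sham 5 (adjusted 0.0549 and 0.0558). The permutation took no account of slide row. With slide row as a term, the Hif3a difference was −0.41 between DKD and sham and 0.96 between enarodustat and DKD (adjusted p = 0.339 and 0.243, limma). The mean Hif3a level was −3.08 in the DKD arrays of row 1 and −3.86 in those of row 2. The part of slide row in the unequal change was not tested. Epas1 relative to Hif1a changed by −0.12 in DKD (exact permutation p = 0.595) and by 0.24 with enarodustat over DKD (exact permutation p = 0.251). The other Hif3a probe was well above background on 1 of 24 arrays and was not tested.

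Arnt encodes HIF-1 beta, the shared partner of the alpha subunits. Its brighter probe ran from 0.08 through a median of 0.41 to 0.49 in sham, from −0.20 through 0.47 to 0.73 in DKD, and from −0.02 through 0.45 to 0.67 in enarodustat. The groups overlapped throughout. Arnt differed by 0.08 ± 0.12 in DKD minus sham (95% interval −0.17 to 0.34, adjusted p = 0.743) and by −0.05 ± 0.11 in enarodustat minus DKD (95% interval −0.28 to 0.18, adjusted p = 0.95). A dimmer Arnt probe gave 0.63 ± 0.29 and 0.05 ± 0.26 (adjusted p = 0.197 and 0.997 over probes), so the probes differed in size for DKD minus sham. At the level of probes, 12 of 13 were well above background on all arrays, and 4 of these passed between DKD and sham (7.52% of all probes), 2 between enarodustat and DKD (0.258%) and 3 between enarodustat and sham (12.8%). The 4 were both Egln2 probes and those of Egln3 and Hif1a. The only Egln1 probe did not pass between DKD and sham when adjusted over probes (adjusted p = 0.0527, limma).

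**Figure D3:**
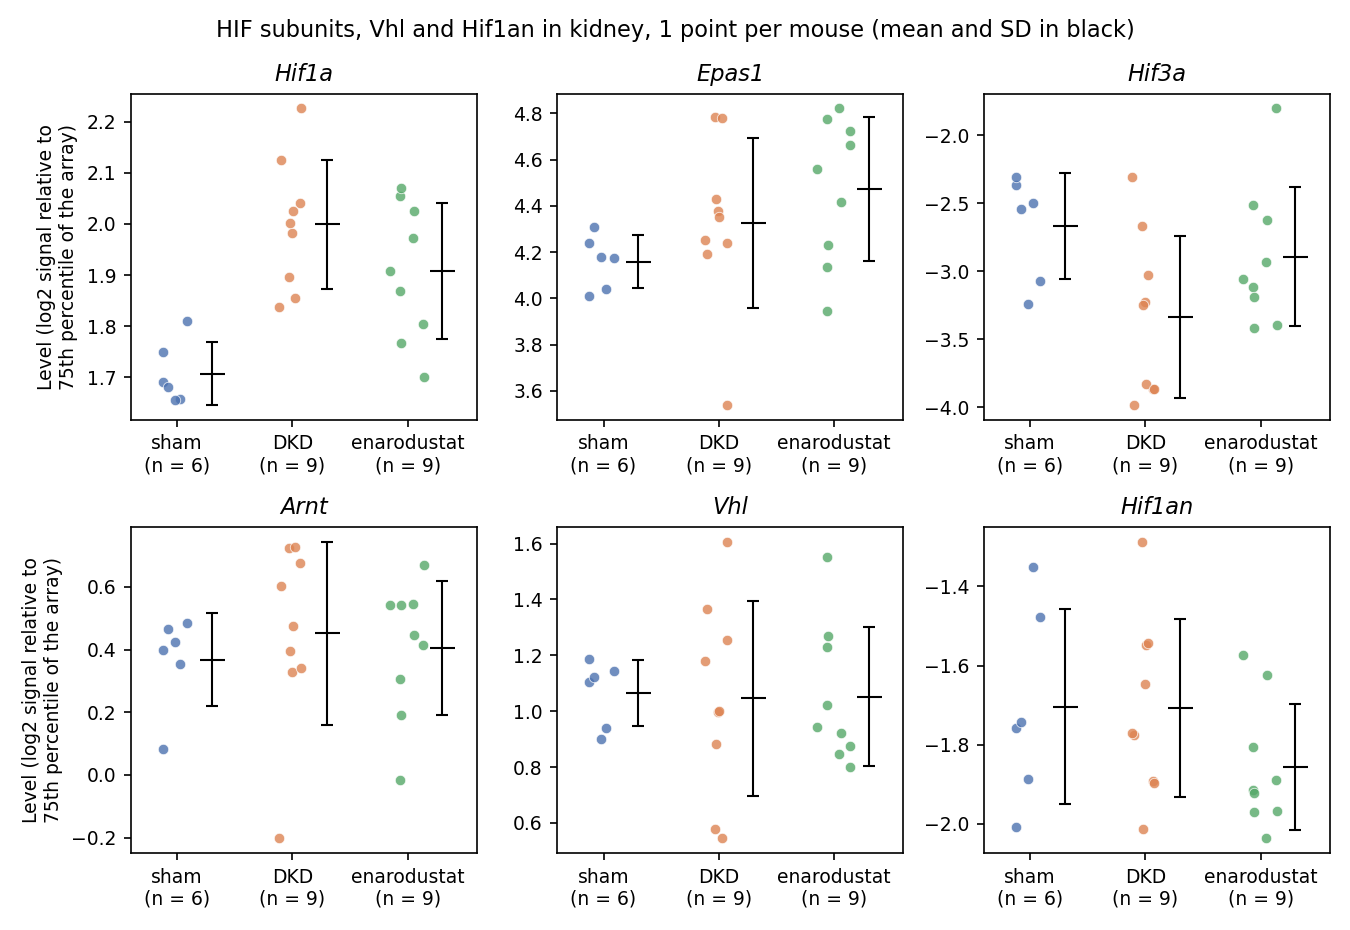
Level of Hif1a, Epas1, Hif3a, Arnt, Vhl and Hif1an in each mouse (y axis, log2 signal minus the array's 75th percentile, with a separate scale per gene), with the mean and SD of each group in black. Every DKD array lies above every sham array for Hif1a, and for the other genes the groups overlap. All of these genes but Hif1an have a larger SD in both alloxan groups than in sham, most so Epas1.

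Relations between members were also examined across the arrays of 1 group. Of 16 relations of Egln3 with another member within the DKD or the enarodustat group, 0 passed after adjustment (1 had an unadjusted exact permutation p under 0.05, Egln3 with Vhl in DKD, r = 0.75, p = 0.0174, and r = 0.67 without the 2 farthest arrays). With values centred on each slide, 3 passed, all in DKD: Egln3 with Vhl (r = 0.90, adjusted 0.0236), with Epas1 (r = −0.89, adjusted 0.0251) and with Hif1a (r = 0.83, adjusted 0.0392; exact permutation). Their rho of 0.85, −0.77 and 0.63 did not pass adjustment, and without the 2 farthest arrays r was 0.65, −0.48 and 0.35. All 72 pairs of members within these groups were then examined, a choice made after the values were seen, and 6 passed by r. Epas1 and Vhl ran opposite in DKD with r = −0.95 (n = 9, exact permutation p = 1e-05, adjusted 0.0006) and rho = −0.98 (exact permutation p = 5e-05, adjusted 0.00357). Without the 2 arrays farthest from the median the r was −0.97, and with values centred on each slide −0.98. In the enarodustat group r was −0.90 (n = 9, exact permutation p = 0.00154, adjusted 0.0277), −0.73 without the 2 farthest arrays and −0.90 centred on slides. There rho was −0.77 and did not pass adjustment (exact permutation p = 0.0214, adjusted 0.154). Such correlations were not rare in these data: 1.01% of 17723 genes in DKD and 6.82% in enarodustat were correlated with Vhl at least as strongly as Epas1 was. Vhl was also set against array brightness, the log2 75th percentile, after the values were seen. In DKD r was −0.86 (rho −0.85, exact permutation p = 0.0019 and 0.00607, adjusted p of r 0.0171 over 18 relations), and −0.65 without the 2 farthest arrays. Adjusted instead over the relations of Vhl with array measures and cell type marker levels, the p of that r was 0.0609 and did not pass. In enarodustat that r was −0.66 (rho −0.73, exact permutation p = 0.0573 and 0.0311, adjusted p of r 0.147), and −0.12 without the 2 farthest arrays. Against the number of spots well above background, Vhl had r of −0.72 in DKD and −0.75 in enarodustat. Without the 2 farthest arrays these were −0.24 and −0.73. The rho was −0.72 and −0.92 (exact permutation p = 0.0369 and 0.00131), and neither r passed adjustment (exact permutation, adjusted 0.211 in both groups). With this number Epas1 had r of 0.58 and 0.74. Epas1 had r of 0.73 and 0.65 with brightness, and Egln3 −0.81 in DKD and −0.44 in enarodustat, none passing adjustment. The 75th percentile ranged from 219 to 277 in sham, 221 to 333 in DKD and 187 to 388 in enarodustat. No cell type marker level passed adjustment with Vhl in either group (exact permutation). Podocyte marker levels in DKD had r of −0.73 with Vhl and 0.77 with Epas1. In enarodustat, endothelial marker levels had r of −0.65 and 0.85, and lymphocyte marker levels 0.72 and −0.66. The part of brightness and of these other measures in these relations and in the group differences was not tested.

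**Figure D4:**
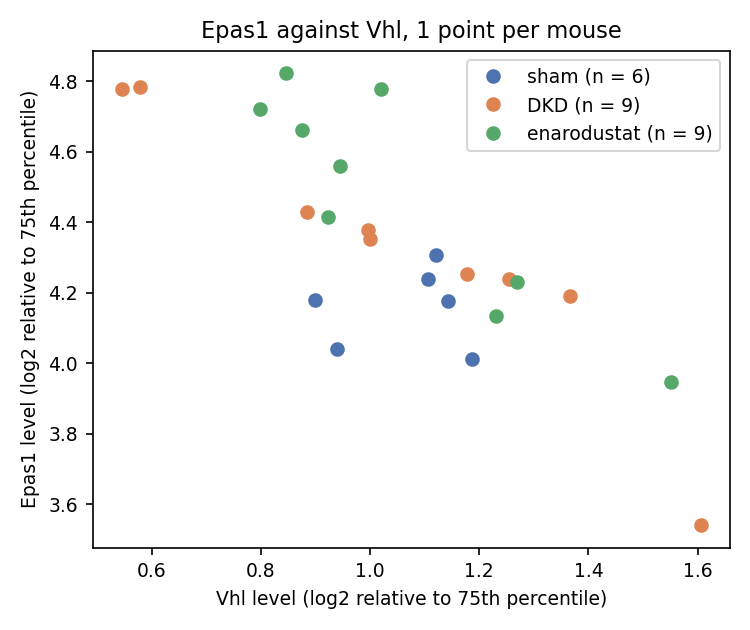
Epas1 level against Vhl level (both log2 signal minus the array's 75th percentile) in each of the 24 mice, coloured by group. DKD and enarodustat mice fall along a descending line, from DKD arrays with Epas1 at 4.78 to DKD 9 with Epas1 at 3.54, while sham mice form a tight cloud.

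The genes whose levels over all 24 arrays were most like those of the members that rose with enarodustat were picked by Pearson r, as a description. Egln1 was most like P4ha1, a collagen prolyl hydroxylase subunit (r = 0.85), Gpi1, glucose phosphate isomerase (r = 0.78), and Tmem178 (r = 0.78). P4ha1 had differences of −0.36 in DKD minus sham (adjusted p = 0.0595) and 0.87 in enarodustat minus DKD (adjusted p = 7.05e-05), and Tmem178 of −0.38 and 0.50 (adjusted p = 0.0369 and 0.0244). For Gpi1 these differences were −0.11 and 0.60 (adjusted p = 0.537 and 0.000259, limma). Egln3 was most like Pdxp, pyridoxal phosphatase (r = 0.97), Aldoc, a glycolytic aldolase (r = 0.94), and Upp1, uridine phosphorylase (r = 0.93). All 3 rose in both steps, Pdxp by 0.78 and 1.06, Aldoc by 1.00 and 0.97, and Upp1 by 0.63 and 0.91. The arrays share the group differences that these correlations contain.

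Around the members, the rest of the VHL ligase joins ubiquitin to captured HIF. Of its 10 genes tested, 1 fell and 0 rose in DKD, near the 11.6% of all genes that changed, with a median difference of −0.07 against −0.01 over all genes. The faller was Cul2, the cullin scaffold of the complex (−0.32 ± 0.09, adjusted p = 0.0252). Between enarodustat and DKD 0 of 10 passed (median 0.03), and between enarodustat and sham 0 of 10 (median −0.06).

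Of 21 HIF cofactors and stability regulators, 1 rose and 5 fell in DKD (median −0.09), where 5.47% and 6.13% of all genes did. Wsb1, a ubiquitin ligase subunit reported to target VHL, rose by 1.48 ± 0.26 (adjusted p = 0.000673). The chaperones Hsp90aa1 and Hsp90ab1, which hold HIF alpha in a stable form, fell, with differences of −0.87 ± 0.12 and −0.70 ± 0.10 (adjusted p = 8.37e-05 and 0.000139), as did the deubiquitinase Usp20 (−0.60 ± 0.12, adjusted p = 0.00248). With enarodustat over DKD 0 of 21 passed (median 0.02). Against sham, 2 rose and 6 fell in enarodustat (median −0.11), where 8.74% and 6.75% of all genes did. Wsb1 was higher by 1.25 ± 0.26 and the coactivator-binding Cited1 by 0.99 ± 0.21, and Hsp90aa1, Hsp90ab1 and Os9 were lower, with differences of −0.85, −0.46 and −0.40.

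The prolyl hydroxylases belong to the 2-oxoglutarate-dependent dioxygenases, and 40 other enzymes of this kind were tested. In DKD, 3 rose and 3 fell (median 0.02), near the share of all genes. Bbox1, the last enzyme of carnitine synthesis, rose by 1.31 ± 0.32 (adjusted p = 0.00877), the aspartyl hydroxylase Asph by 0.47 ± 0.12 and the collagen hydroxylase P3h2 by 0.41 ± 0.11. Plod2, a collagen lysyl hydroxylase, fell (−0.80 ± 0.17, adjusted p = 0.00374), as did Tmlhe, the first enzyme of carnitine synthesis (−0.42 ± 0.11), and the histone demethylase Kdm2b (−0.28 ± 0.08). With enarodustat over DKD, 2 of 40 rose and 0 fell (median −0.01), where 0.609% and 0.107% of all genes did. The 2 were the collagen prolyl hydroxylase subunits P4ha1 (0.87 ± 0.11, adjusted p = 7.05e-05) and P4ha2 (0.34 ± 0.07, adjusted p = 0.0308), both also on the list of HIF targets. Against sham, 8 rose and 2 fell in enarodustat (median 0.03), where 8.74% and 6.75% of all genes did. Bbox1 (1.05), P4ha1 (0.52) and the histone demethylase Kdm3a (0.48) rose most, and Tet1 (−0.60) and Kdm6a (−0.36) were the fallers.

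HIF target genes, the output of the pathway, were counted beside the members. In DKD, 11 of 44 rose and 1 fell (median 0.09), where 5.47% and 6.13% of all genes did. Angptl4, a lipase inhibitor, rose by 1.58 ± 0.35 (adjusted p = 0.0046), the lactate exporter Slc16a3 by 1.29 ± 0.19 (adjusted p = 0.000113) and Aldoc by 1.00 ± 0.14 (adjusted p = 6.66e-05), and Plod2 was the faller. With enarodustat over DKD, 15 of 44 rose and 0 fell (median 0.37 against 0.0048 over all genes), where 0.609% and 0.107% of all genes did. Slc16a3 rose by 3.03 ± 0.17 (adjusted p = 4.27e-11), Ankrd37 by 2.05 ± 0.17 (adjusted p = 7.25e-08) and the hexokinase Hk2 by 1.84 ± 0.33 (adjusted p = 0.00525). Against sham, 24 of 44 rose in enarodustat and 0 fell (median 0.49), where 8.74% and 6.75% of all genes did. The largest rises were those of Slc16a3 (4.33), Ankrd37 (2.74) and Aldoc (1.98). Epo, the erythropoietin gene, was below the detection filter.

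**Figure D5:**
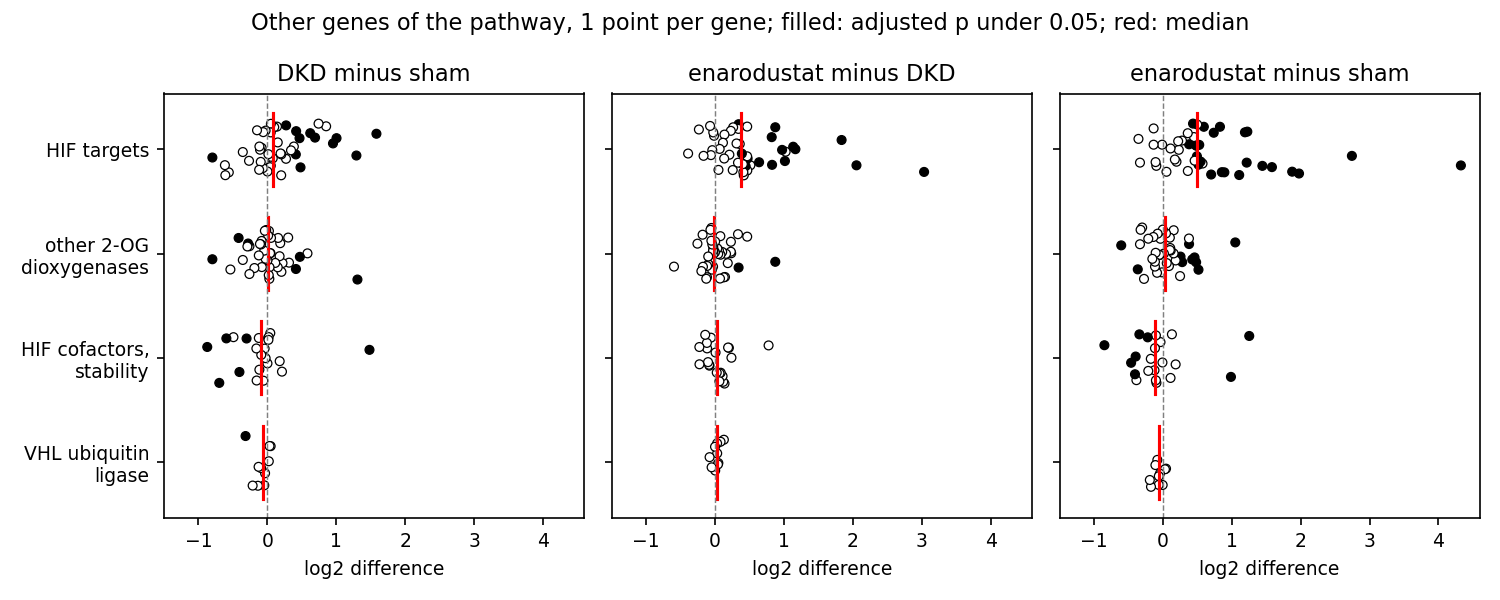
Log2 difference of every tested gene (x axis) on 4 lists of the pathway in each of the 3 comparisons, with filled points for an adjusted p under 0.05 and a red line at the median of each list. The median of the HIF targets moves from 0.09 to 0.37 and 0.49 across the panels, and the medians of the other lists lie between −0.11 and 0.03.

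Markers of several cell types moved with these comparisons. Of all genes, 5.47% rose and 6.13% fell in DKD, and 0.609% rose and 0.107% fell with enarodustat over DKD. Of 13 endothelial markers, 7 rose with enarodustat over DKD and 0 fell, and their mean level ran from 1.67 to 2.00 in enarodustat against 1.45 to 1.70 in DKD and 1.40 to 1.60 in sham. The risers differed by 0.37 (Ehd3) to 0.46 (Esam), and the list shares Flt1 and Tek with the HIF targets. Of 6 principal cell markers of the collecting duct, 6 rose in DKD, and their mean level ran from 1.52 to 1.95 in DKD and 1.39 to 2.12 in enarodustat against 0.69 to 1.36 in sham. Of 11 proximal tubule markers, 1 rose and 3 fell in DKD, with a mean level of 6.02 to 6.39 against 6.15 to 6.45 in sham and 5.86 to 6.14 in enarodustat. The part of these cell types in the changes of Egln1, Egln2, Egln3 and Hif1a was not tested.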

How the data were processed

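Kidney RNA of 24 mice was hybridised to 1 Cy3-labelled Agilent array each. The deposited scanner values are intensity signals, which Agilent Feature Extraction 12.1.1.1 had corrected for background and spatial trend, per the file headers; version 11.5.1.1 and limma stand in the submitters' processing notes, with no role given. The authors' deposited table holds log2 values of 31409 probes; its steps are not given in the sources used here, but normexp with an offset of 50 on the median signals and quantile normalization gave all but 630 of 753816 values within 0.05. Its column medians ran from 7.543 to 7.559.

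Control spots were left out, spots of a probe were averaged, and the array's 75th percentile was subtracted from each processed signal on the log2 scale. Probes were named by accession through RefSeq (GRCm38.p6; 32994 of 56605 named). The brightest probe stood for a gene, tested if well above background on at least 6 arrays. limma 3.58.1 in R 4.3.3 fitted group over all arrays, with Benjamini-Hochberg adjustment and a threshold of 0.05. The scripts were tested on simulated data. Named were the members at every probe, up to 3 passing genes per direction of each pathway list with the largest change, the 3 genes most like each member that passed between enarodustat and DKD, and the lists' markers as counts. The members and lists were chosen with earlier results of these data known. The replicates were taken as separate mice, as the series text counts mice. In the main fit their numbers were not used to pair samples. Deviations of same-numbered arrays correlated from −0.36 to 0.28 (median 0.10, against −0.02 between different numbers). Those of arrays on 1 slide had a median correlation of 0.19, against −0.09 between slides. Enarodustat 3, the 1 array with a scanner quality warning, was used. Alternatives were other scalings, background corrections, filters, probe rules, slide, row and replicate terms, and leaving out each array.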

Additional observations from a re-analysis of the deposited data

Results flagged for a closer look

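A check of the highest and lowest array in each of 27 groups of member values found 3 that stood far from the rest of their group, and chance gives about 1 in 20 groups. Epas1 in DKD 9 was 3.54, the lowest of the 9 DKD arrays. Arnt in sham 5 was 0.083, the lowest of 6, and Arnt in DKD 4 was −0.20, the lowest of 9. The second Hif3a probe, which no comparison used, was well above background on enarodustat 1 alone, at a level of −5.15, and on 0 of the 6 sham and 9 DKD arrays.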

How the results depend on the processing

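Counts of members that passed depended on the scaling and on the samples fitted. For DKD minus sham, 4 genes became 1 with arrays scaled to their median, 2 after quantile normalization, 2 with the replicate number as a block and 0 within each of slides 1, 2 and 3 (0, 0 and 0), where few arrays remain; the 2058 genes called in all became 1303, 2082, 1461 and 15, 0 and 9. In that comparison 4 probes became 2 with median scaling. For enarodustat minus DKD, 2 genes became 1 with median scaling, 1 with quantile normalization, 1 in the authors' deposited values, 0 with slide row as a term and 0 within each slide, where the 127 of all genes became 36, 139, 151 (of 15112 tested), 20 and 4, 3 and 0; 2 probes became 1 under the first 3 of these. For enarodustat minus sham, 2 genes became 1 with slide row and 1, 1 and 0 within slides 1, 2 and 3 (of all genes, 2748 became 889 and 36, 30 and 7), and 3, Hif1a passing, with quantile normalization, in the deposited values and with normexp on median signals. The 9 unequal changes ranged from 8 to 10 without 1 array. Relations of Egln3 that passed went from 0 to 2 with median scaling and 3 with values centred on each slide. Leaving out 1 array gave 2 to 5 genes for DKD minus sham (2 without sham 3 or sham 4, 5 without DKD 4), 2 for enarodustat minus DKD and 2 to 3 for enarodustat minus sham. With the replicate block Egln1 in DKD minus sham was −0.18 (adjusted p = 0.15) and Egln2 −0.28 (adjusted p = 0.0756). Values that did not pass changed sign as follows. For DKD minus sham, Epas1 was −0.0050 on slide 1; Arnt −0.021 with median scaling and −0.087 on slide 2; Vhl 0.019 in the deposited values, 0.0040 with normexp on median signals and 0.093 on slide 1; Hif1an 0.0039 with normexp, 0.061 as a mean of probes, 0.031 with slide row, 0.048 with the replicate block and 0.13 on slide 3. For enarodustat minus DKD, Hif1a was 0.076 and Epas1 −0.16 on slide 2, Arnt 5.0e-05 as a mean of probes, and Vhl −0.033 with median scaling, −0.0056 in the deposited values, −0.0065 with normexp, −0.24 with slide row and −0.22 on slide 1. For enarodustat minus sham, Egln1 was −0.027 with median scaling, Hif3a 0.56 with slide row and 0.038 on slide 1, Arnt −0.11 with median scaling, −0.033 with slide row, −0.0095 on slide 1 and −0.096 on slide 2, and Vhl 0.0053 with quantile normalization, 0.014 in the deposited values and 0.099 on slide 2. Without 1 array Vhl ranged from −0.090 to 0.043, −0.057 to 0.076 and −0.077 to 0.017 in the 3 comparisons, Hif1an from −0.065 to 0.066 for DKD minus sham, and Arnt from −0.13 to 0.0053 and −0.021 to 0.089 for enarodustat minus DKD and minus sham. The cause of these changes was not tested. Normexp on the mean spot signals, planned, was not run because the values used here hold median signals; normexp on these was added after seeing the data. Probes near background, such as the second Hif3a probe, have no level that a test could use.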

Other observations

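Further pairs of members were correlated across the arrays of 1 group, among the same 72 pairs examined after their values were seen. Hif1a and Hif3a ran opposite in DKD (n = 9, r = −0.86, exact permutation p = 0.00295, adjusted 0.0354, rho = −0.93, exact permutation p = 0.00075, adjusted 0.027, and r = −0.88 without the 2 farthest arrays). In the DKD arrays of rows 1 and 2, the mean level was 1.95 and 2.10 for Hif1a and −3.08 and −3.86 for Hif3a. The part of slide row in this relation was not tested. In the enarodustat group Arnt ran opposite to Vhl (n = 9, r = −0.94, exact permutation p = 0.00084, adjusted 0.0233, rho = −0.83, exact permutation p = 0.00827, adjusted 0.085, and r = −0.74 without the 2 farthest arrays). There Epas1 ran with Arnt (n = 9, r = 0.90, exact permutation p = 0.00097, adjusted 0.0233, rho = 0.88, exact permutation p = 0.00308, adjusted 0.0554, and r = 0.81 without the 2 farthest arrays). It ran opposite to Egln2 (n = 9, r = −0.88, exact permutation p = 0.0025, adjusted 0.0354, rho = −0.87, exact permutation p = 0.00451, adjusted 0.0649, and r = −0.88 without the 2 farthest arrays). In the enarodustat group the rho of these pairs did not pass adjustment. Egln2 also moved with array brightness in that group (n = 9, r = −0.87, exact permutation p = 0.00074, adjusted 0.0134 over 18 relations, rho = −0.88, exact permutation p = 0.00308, and r = −0.69 without the 2 farthest arrays). Arnt had an r of 0.71 with brightness there (exact permutation p = 0.0362, adjusted 0.13), and 0.10 without the 2 farthest arrays. Correlations of this size were common in both groups: 17.6% of 17723 genes in DKD and 18.9% in enarodustat had an r with Vhl beyond 0.8 in size.

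Of 4 red cell markers tested, 3 fell in DKD and 1 did not pass (6.13% of all genes fell), and 1 rose with enarodustat over DKD (0.609% of all genes rose), with mean levels of 5.34 in sham, 4.45 in DKD and 5.45 in enarodustat. Of 10 lymphocyte markers tested, 3 fell in DKD and 7 did not pass, with mean levels of −3.07, −3.83 and −3.55.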
